A study of Homo sapiens with 12 samples.

Results

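FBXO2, FBXO44, FBXO6 and MAD2L2 are adjacent genes on chromosome 1, and they are 4 of the 25433 genes counted in A549, a human lung adenocarcinoma line with alveolar epithelial features. FBXO2 was chosen by its high level in cells given acetate and the other 3 by their position next to it, so the acetate values of FBXO2 are given as a description with no test. The 12 libraries form 3 groups of 4, all from the same line. The acetate group received TGF-β1 at 10 ng/mL together with sodium acetate at 40 mM, the TGF-β1 group received TGF-β1 at the same dose alone, and the third group is labelled only as control. Treated wells were kept for 2 days. Nothing in the labels tells if libraries of 1 group came from separate cultures, so p-values measure only the spread between these libraries. TGF-β1 is a growth factor that pushes epithelial cells to take on mesenchymal traits. Acetate, the main short-chain fatty acid in the body, is a source of acetyl-CoA.

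F-box proteins are the interchangeable parts of SCF ubiquitin ligases: the F-box docks on SKP1 and the CUL1 scaffold, and the rest of the protein holds the substrate. FBXO2, FBXO44 and FBXO6 belong to the small group of F-box proteins with an FBA domain. In FBXO2 and FBXO6 this domain binds the sugar chains of N-glycosylated proteins, and both are known for handling misfolded glycoproteins that leave the endoplasmic reticulum, FBXO2 above all in neurons. FBXO44 carries the same fold but is not known as a strong sugar binder. MAD2L2, also called REV7, is an unrelated HORMA-domain protein that serves DNA polymerase zeta in translesion synthesis, the shieldin complex in the choice of double-strand break repair, and the control of the anaphase-promoting complex.

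FBXO2 (ENSG00000116661.9) lies at chr1:11648367-11655785 on the minus strand of hg38, and FBXO44 (ENSG00000132879.13) at chr1:11654375-11663327 on the plus strand. Their 5′ ends face each other and their annotated bodies overlap by 1411 bases, of which 267 are exonic in both genes. FBXO6 (ENSG00000116663.10) follows FBXO44 on the same strand at chr1:11664124-11674354, after a gap of 796 bases. MAD2L2 (ENSG00000116670.14), at chr1:11674480-11691650 on the minus strand, ends 125 bases beyond the end of FBXO6. Its own 5′ end lies 78 bases from that of DRAXIN (ENSG00000162490.6), a gene for a secreted axon guidance protein that occupies chr1:11691729-11725857 on the plus strand.

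**Figure D1:**
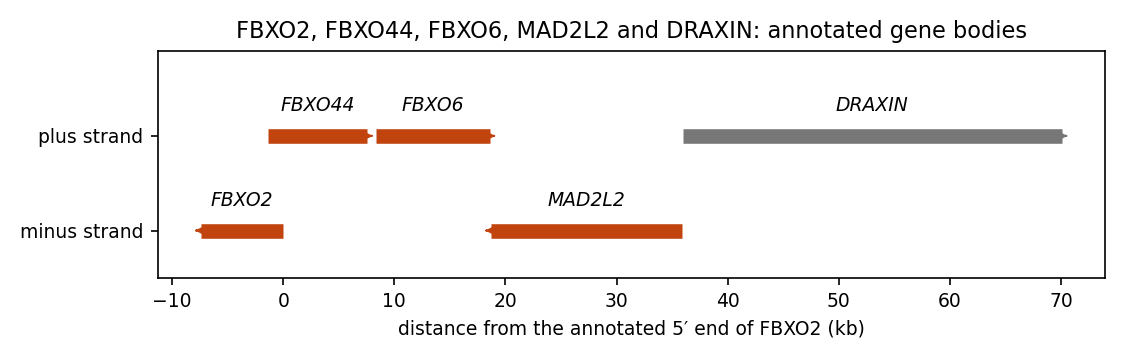
Annotated bodies of the 4 genes (red) and of DRAXIN (grey) on the plus and minus strands, with distance from the annotated 5′ end of FBXO2 in kb on the x axis and arrows in the direction of transcription. FBXO2 and FBXO44 overlap head to head, FBXO44 and FBXO6 run in tandem, and MAD2L2 and DRAXIN point away from each other.

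The promoter sequences are shown for the head-to-head pairs, since the results compare genes that start in the same stretch. Each is the RefSeq window of 300 bases, GRCh38.p14, from 250 bases before to 50 after the RefSeq start. Capitals mark the stretch that lies in the windows of both genes of a pair, on opposite strands. The windows of FBXO2 (chr1:11654380-11654679, minus strand) and FBXO44 (chr1:11654157-11654456, plus strand) share 77 bases, and their RefSeq starts lie 22 bases apart. The windows of MAD2L2 (chr1:11691510-11691809, minus strand) and DRAXIN (chr1:11691460-11691759, plus strand) share 250 bases, with starts 151 bases apart.
FBXO2: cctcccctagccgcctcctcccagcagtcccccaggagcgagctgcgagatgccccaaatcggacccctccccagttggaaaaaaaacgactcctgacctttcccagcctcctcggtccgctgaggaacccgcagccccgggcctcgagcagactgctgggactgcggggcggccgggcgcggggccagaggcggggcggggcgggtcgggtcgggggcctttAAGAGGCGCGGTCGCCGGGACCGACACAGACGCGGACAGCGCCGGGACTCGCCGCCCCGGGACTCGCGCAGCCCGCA
FBXO44: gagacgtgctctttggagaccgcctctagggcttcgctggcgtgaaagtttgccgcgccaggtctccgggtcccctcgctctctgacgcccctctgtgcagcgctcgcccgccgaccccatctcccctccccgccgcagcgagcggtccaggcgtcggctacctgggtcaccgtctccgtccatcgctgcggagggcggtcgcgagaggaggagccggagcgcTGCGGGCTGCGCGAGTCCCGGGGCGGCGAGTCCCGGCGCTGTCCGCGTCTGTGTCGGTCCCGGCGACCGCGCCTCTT
MAD2L2: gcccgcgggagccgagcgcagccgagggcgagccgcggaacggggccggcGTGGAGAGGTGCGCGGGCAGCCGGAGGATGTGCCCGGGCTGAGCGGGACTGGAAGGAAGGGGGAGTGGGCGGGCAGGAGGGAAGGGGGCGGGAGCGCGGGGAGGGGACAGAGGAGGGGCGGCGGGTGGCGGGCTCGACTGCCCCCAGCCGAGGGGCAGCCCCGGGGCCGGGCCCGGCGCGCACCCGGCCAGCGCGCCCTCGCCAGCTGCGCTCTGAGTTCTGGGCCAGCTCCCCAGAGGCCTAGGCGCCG
DRAXIN: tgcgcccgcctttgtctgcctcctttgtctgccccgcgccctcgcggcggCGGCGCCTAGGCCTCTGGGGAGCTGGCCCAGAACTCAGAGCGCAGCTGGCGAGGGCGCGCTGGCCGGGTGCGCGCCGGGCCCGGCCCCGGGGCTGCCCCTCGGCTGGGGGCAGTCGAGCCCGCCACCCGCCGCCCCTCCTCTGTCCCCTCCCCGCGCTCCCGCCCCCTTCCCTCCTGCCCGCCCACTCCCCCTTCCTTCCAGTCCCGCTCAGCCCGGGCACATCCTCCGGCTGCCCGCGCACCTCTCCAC

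All 5 promoter windows, that of FBXO6 included, were rich in G and C. Their GC content was 73.3% for FBXO2, 73.0% for FBXO44, 67.7% for FBXO6, 80.0% for MAD2L2 and 78.0% for DRAXIN, against a median of 58.7% over the 35116 RefSeq promoters. They held 35, 43, 22, 37 and 33 CG dinucleotides in the same order of genes, against a median of 14. The GC box GGGCGG, searched on both strands, occurred 4 times in the FBXO2 window, 2 times in that of FBXO44, 1 time in that of FBXO6 and 3 times each in those of MAD2L2 and DRAXIN, and 45.0% of all promoters hold at least 1 copy. The E-box CAGGTG was found 1 time, in the FBXO6 window, and 20.6% of all promoters hold it. No window of the 5 held, on either strand, the CCAAT box (in 34.6% of all promoters), the TATA box TATAAA (11.5%), the E-box CACGTG (7.26%), the AP-1 motif TGANTCA (7.71%) or the palindromic SMAD motif GTCTAGAC (0.202%).

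The libraries held between 34698057 and 53938444 counts each, so that 3 counts equal 0.0565 to 0.0858 CPM (counts of a gene per 1000000 counts of its library). That floor covers no more than counting error. The 5 epithelial markers (EPCAM, KRT7, KRT8, KRT18, KRT19) were all measured, and summed to 6620 to 7630 CPM in the acetate libraries, 5570 to 6180 CPM in the TGF-β1 libraries and 5970 to 6230 CPM in the control libraries. Within that sum, EPCAM stood at 5.38 to 6.13 CPM with acetate, 0.75 to 1.22 CPM with TGF-β1 and 3.92 to 4.59 CPM in control. KRT19 stood at 52.3 to 71.8, 6.16 to 7.76 and 32.6 to 40.3 CPM in the same groups, so both were lowest with TGF-β1 alone. KRT18 was lowest there too, at 1710 to 2000, 1390 to 1510 and 1930 to 1970 CPM in the same order. KRT7 was instead lowest in control, at 2540 to 2820, 2110 to 2380 and 1760 to 1860 CPM. KRT8 stood at 2320 to 2740, 2070 to 2320 and 2180 to 2360 CPM, and its TGF-β1 and control ranges overlap. Of 4 immune markers only CD68 had a value in both tables, at 21.6 to 23.3 CPM with acetate, 13.1 to 16.4 CPM with TGF-β1 and 9.77 to 12.5 CPM in control, while none of the 3 endothelial markers and not the erythroid marker HBB had one. The part of other cells in the results was not tested. The count columns carry no sample names, so the groups rest on which deposited table holds a column, and every comparison depends on that placement.

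FBXO2 was a low gene in the cells without acetate and the highest of the 4 in the cells with it. Its level was 42.6, 40.4, 46.6 and 39.6 CPM in the 4 acetate libraries, 2.27, 2.26, 2.76 and 2.73 CPM in the TGF-β1 libraries, and 3.2, 3.34, 3.17 and 3.65 CPM in the control libraries. The 4 acetate libraries stand far apart from the other 8, and every TGF-β1 library lies below every control library. The means were 42.3 ± 3.10, 2.51 ± 0.277 and 3.34 ± 0.222 CPM in acetate, TGF-β1 and control cells (SD, n = 4 each). Acetate with TGF-β1 was 16.9-fold above TGF-β1 alone and 12.6-fold above control. Both folds come from libraries that picked FBXO2, so they are given without an interval. Of the 22336 genes in the acetate comparison, FBXO2 had the 37th largest log2 fold change, so that 0.161% of genes lay above it. That rank comes from the values that picked FBXO2 and is no support for its rise. In bulk RNA, a change in the number of cells that make a transcript and a change in RNA per cell cannot be told apart.

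FBXO44, which starts within the same stretch on the other strand, was also higher with acetate, by a smaller fold. It stood at 25.7, 25.4, 28.3 and 23.5 CPM in the acetate libraries, 9.30, 9.52, 9.61 and 10.6 CPM in the TGF-β1 libraries, and 10.8, 9.81, 10.5 and 9.60 CPM in the control libraries. The acetate libraries do not overlap with the others, while the TGF-β1 and control libraries interleave. FBXO44 rose 2.66-fold with acetate over TGF-β1 alone, a log2 fold change of 1.41 ± 0.064 (SE, n = 4 each; edgeR adjusted p = 4e-11). A larger log2 fold change was seen in 6.29% of all genes tested in that comparison.

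FBXO6, the closest relative of FBXO2 in sugar binding among the 4, did not follow it. Its level was 1.91, 2.00, 2.15 and 2.47 CPM in acetate libraries, 2.13, 2.03, 2.15 and 2.00 CPM in TGF-β1 libraries, and 3.91, 3.90, 4.11 and 4.07 CPM in control libraries. The acetate and TGF-β1 libraries overlap, and all 8 lie below the 4 control libraries. The log2 fold change with acetate over TGF-β1 was 0.05, with a 95% interval of -0.21 to 0.32 (edgeR adjusted p = 0.73), so that a change of more than 1.25-fold upwards lies outside the interval.

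MAD2L2 stood at 16.2, 14.1, 18.7 and 15.6 CPM in the acetate libraries, 13.2, 15.4, 14.9 and 15.7 CPM in the TGF-β1 libraries, and 19.9, 20.0, 19.6 and 20.8 CPM in the control libraries. As for FBXO6, the groups with and without acetate overlap and both lie below control. With acetate over TGF-β1 the log2 fold change was 0.14, with an interval of -0.03 to 0.31 (edgeR adjusted p = 0.14). This call is not stable: it passed at 0.27 (adjusted p = 0.004) when libraries were scaled by their totals, a scaling that lifts the median of all genes by 0.13 in this comparison, and at 0.20 (adjusted p = 0.039) without acetate library S23.

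**Figure D2:**
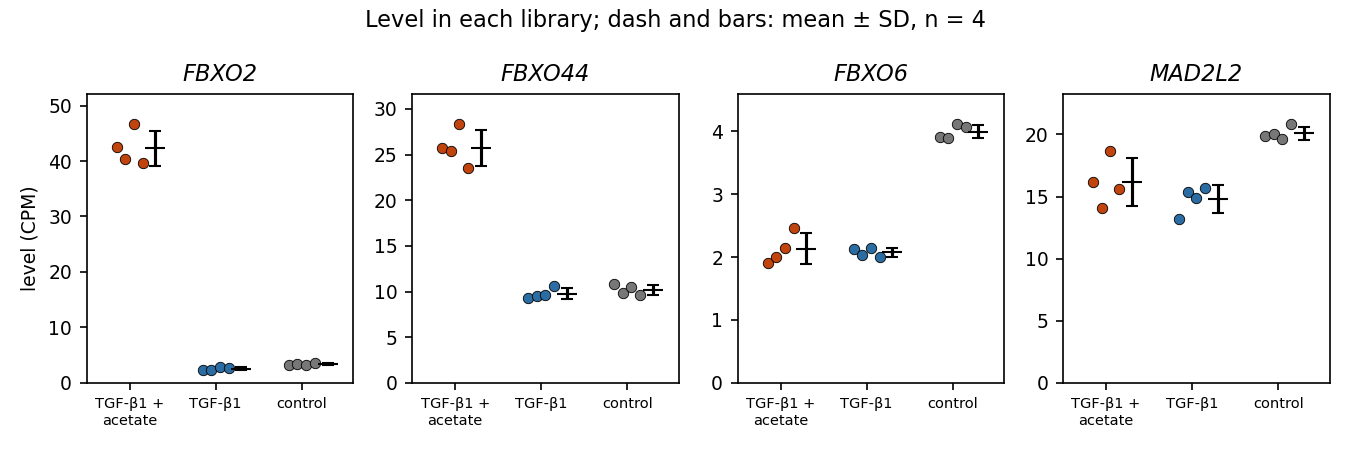
Level of each gene in CPM (linear y axes from 0, one scale per gene) in the libraries with TGF-β1 plus acetate, TGF-β1 alone and control; each point is 1 library, and the dash with bars is the mean ± SD of 4. The acetate points of FBXO2 and FBXO44 stand above all others (39.6 to 46.6 CPM and 23.5 to 28.3 CPM), while FBXO6 and MAD2L2 are highest in control.

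With acetate over TGF-β1, 1 of the 3 neighbours tested passed, where 63.7% of all genes passed in either direction, 33.3% as higher and 30.4% as lower. Whether the neighbours responded unequally was tested on the ratio of each pair of genes within a library, with an exact two-sided permutation test over the 4 against 4 libraries. Its smallest possible p is 0.0286. Adjustment over 12 pair tests in 3 comparisons gave 0.0343 for each test at that smallest p. Of the 12, 3 hold FBXO2 and are printed as values alone, but they entered the adjustment. The log2 ratio of FBXO44 to FBXO6 was 3.59 ± 0.23 in acetate libraries and 2.22 ± 0.12 in TGF-β1 libraries (SD, n = 4 each), a difference of 1.36 (exact adjusted p = 0.0343). For FBXO44 to MAD2L2 it was 0.68 ± 0.12 with acetate and -0.60 ± 0.083 with TGF-β1 alone, a difference of 1.28 (exact adjusted p = 0.0343). FBXO44 thus moved apart from both genes to its right, and no library of one group reached the ratios of the other. For FBXO6 to MAD2L2 the difference was -0.09 (exact adjusted p = 0.499), with overlapping groups. The ratio of FBXO2 to FBXO44, given without a test, was 0.72 ± 0.035 with acetate and -1.96 ± 0.12 with TGF-β1 alone.

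FBXO2 and FBXO44 share exonic bases on opposite strands, and the strand setting of the authors' counter was not given in the sources used here. Had counting ignored the strand, reads from the shared bases could be counted for either gene. The shared bases are 7.82% of the exonic bases of FBXO2. With the FBXO44 counts lowered in every library by that share of the FBXO2 count, the log2 fold change of FBXO44 was 1.24 (edgeR adjusted p = 2.1e-10). That takes FBXO2 reads as evenly spread over all its annotated exons, which was not measured, and the part of shared reads in the rise of FBXO44 was not tested.

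With TGF-β1 alone, 2 of the 3 neighbours of FBXO2 fell. In this comparison with control, 66.9% of all genes passed in either direction, 34.1% as higher and 32.8% as lower. FBXO6 fell to 2.08 ± 0.0744 CPM in TGF-β1 cells, against 4.00 ± 0.110 CPM in control cells (SD, n = 4 each), a log2 fold change of -0.94 ± 0.096 (SE; edgeR adjusted p = 2.2e-07). MAD2L2 fell to 14.8 ± 1.11 CPM, against 20.1 ± 0.485 CPM in control cells, a log2 fold change of -0.43 ± 0.055 (adjusted p = 2.8e-06). FBXO2 stood at 0.756 of its control level, a log2 fold change of -0.40. This is given without a test, since low values in the TGF-β1 libraries also helped to pick FBXO2. FBXO44 averaged 9.76 ± 0.577 CPM with TGF-β1 and 10.2 ± 0.577 CPM in control, and its log2 fold change of -0.06, with an interval of -0.19 to 0.08, did not pass (adjusted p = 0.47); under scaling by library totals it was -0.16 (adjusted p = 0.045), where the median of all genes shifts by -0.10.

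The ratios separated the genes under TGF-β1 as well. The log2 ratio of FBXO44 to FBXO6 was 0.88 higher in TGF-β1 than in control libraries, and that of FBXO44 to MAD2L2 was 0.38 higher (exact permutation test, adjusted p = 0.0343 for each). The ratio of FBXO6 to MAD2L2 differed by -0.50, at the same exact adjusted p. The ratios of FBXO2 to FBXO44, FBXO6 and MAD2L2 differed by -0.35, 0.52 and 0.02, given without a test, because the same TGF-β1 libraries entered the choice of FBXO2.

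Against control, the cells with both agents had FBXO44 higher and the genes to its right lower. All 3 genes tested passed, where 70.6% of all genes did, 36.1% as higher and 34.4% as lower. FBXO44 was 2.53-fold higher (log2 fold change 1.34, edgeR adjusted p = 3.3e-13). FBXO6 was at 0.537 of its control level (log2 fold change -0.90, adjusted p = 1.6e-07) and MAD2L2 at 0.806 (log2 fold change -0.31, adjusted p = 0.00057). The authors' deposited table gives log2 fold changes of 4.07, 1.40, 0.04 and 0.13 for acetate over TGF-β1 in FBXO2, FBXO44, FBXO6 and MAD2L2. For TGF-β1 over control the authors' deposited table gives -0.40, -0.05, -0.93 and -0.43 in the same order.

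Levels of different genes were compared per kilobase of all exonic bases of a gene, 3416 for FBXO2, 3527 for FBXO44, 1811 for FBXO6 and 3324 for MAD2L2. In acetate cells the order of levels was FBXO2 at 12.4 ± 0.909, FBXO44 at 7.30 ± 0.553, MAD2L2 at 4.85 ± 0.576 and FBXO6 at 1.18 ± 0.134 CPM per kb (SD, n = 4). In TGF-β1 cells it was MAD2L2 at 4.45 ± 0.334, FBXO44 at 2.77 ± 0.164, FBXO6 at 1.15 ± 0.0411 and FBXO2 at 0.734 ± 0.0811 CPM per kb. In control cells MAD2L2 was again first at 6.03 ± 0.146, before FBXO44 at 2.89 ± 0.164, FBXO6 at 2.21 ± 0.0605 and FBXO2 at 0.978 ± 0.0650 CPM per kb. FBXO2 thus stood last of the 4 without acetate and first with it, and in each group neighbours in the order lay further apart than their SDs. Part of the order depends on the length used: per kilobase of the longest coding transcript, acetate cells had 27.1 ± 1.99 for FBXO2 and 26.8 ± 2.03 for FBXO44, which did not differ beyond their spread, and in TGF-β1 cells FBXO2 at 1.61 stood above FBXO6 at 1.37.

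The 3 F-box genes together made 20.9 ± 1.40 CPM per kb in acetate cells, 4.65 ± 0.208 in TGF-β1 cells and 6.08 ± 0.127 in control cells. FBXO2 held 59.4 ± 0.556% of that sum with acetate, 15.8 ± 1.15% with TGF-β1 and 16.1 ± 1.27% in control. FBXO6 held 5.67 ± 0.858%, 24.7 ± 1.59% and 36.3 ± 0.919% in the same groups. FBXO44 was the largest share in every library without acetate, at 59.5 ± 1.54% with TGF-β1 and 47.5 ± 1.97% in control, and the second largest with acetate at 35.0 ± 0.733%. Per kb of the longest coding transcript these shares moved: FBXO2 held 49.0 ± 0.520% with acetate, 12.2 ± 0.911% with TGF-β1 and 13.9 ± 1.29% in control, FBXO44 held 48.5 ± 0.706%, 77.4 ± 1.10% and 69.0 ± 1.86%, and FBXO6 held 2.55 ± 0.404%, 10.4 ± 0.788% and 17.1 ± 0.669%. With that length FBXO2 and FBXO44 did not differ beyond their spread with acetate, and each gene's order over the groups was kept.

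**Figure D3:**
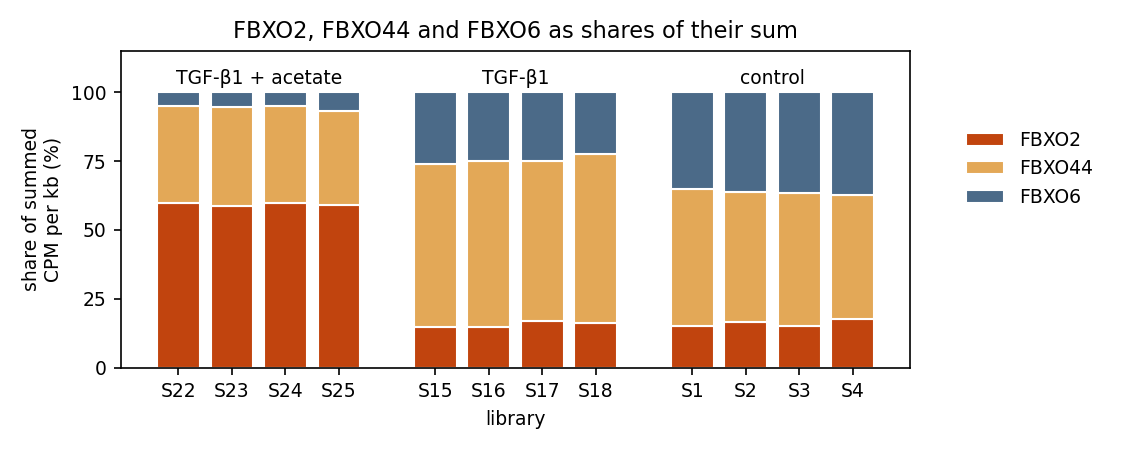
Share (%) of FBXO2, FBXO44 and FBXO6 in their summed CPM per kb in each of the 12 libraries, which are named by their column codes on the x axis and grouped as TGF-β1 plus acetate, TGF-β1 and control. FBXO2 takes 59.4% on average with acetate and 15.8% with TGF-β1 alone, with little spread within a group.

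Beyond the 4 genes, DRAXIN had the largest log2 fold change with TGF-β1 among the genes tested in the 500 kb on either side. It stood at 3.69, 3.37, 3.62 and 4.09 CPM in acetate libraries, 1.37, 1.97, 1.86 and 2.17 CPM in TGF-β1 libraries, and 0.184, 0.122, 0.102 and 0.0565 CPM in control libraries, the lowest of which equals its floor of 3 counts. The 3 groups do not overlap. DRAXIN rose with TGF-β1 over control by a log2 fold change of 3.96 ± 0.28 (SE; edgeR adjusted p = 1.7e-09) and again with acetate over TGF-β1 by 1.02 ± 0.13 (adjusted p = 6.6e-06), whereas MAD2L2, with which it shares its start region, fell with TGF-β1. On the other side, the nearest protein-coding gene tested was DISP3, a member of the dispatched family of sterol-sensing membrane proteins, at 0.221 ± 0.0883 CPM in acetate, 0.392 ± 0.137 CPM in TGF-β1 and 0.118 ± 0.0783 CPM in control libraries. DISP3 rose with TGF-β1 (log2 fold change 1.77, adjusted p = 0.0016) and gave -0.85 with acetate over TGF-β1 (adjusted p = 0.052; -1.07 and 0.017 without TGF-β1 library S16), at levels close to the floor. NPPA, the atrial natriuretic peptide gene, was at 0.456 ± 0.161 CPM with acetate and 0.207 ± 0.103 CPM with TGF-β1 alone (log2 fold change 1.20, adjusted p = 0.015). That call was lost without TGF-β1 library S17 (0.82, adjusted p = 0.06) and without acetate library S25 (0.92, adjusted p = 0.072).

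Among the genes within 500 kb that could be tested with acetate over TGF-β1, the 4 left out, 3 of 17 rose and 7 fell, where 33.3% of all genes rose and 30.4% fell. Their median log2 fold change was -0.19, against 0.03 over all genes. Scaled by library totals, 6 rose and 4 fell, where 9585 of all 22336 genes rose and 4700 fell. With TGF-β1 over control, 9 of 16 rose and 3 fell, where 34.1% of all genes rose and 32.8% fell, with a median of 0.34 against 0.02 over all genes. PLOD1, a collagen lysyl hydroxylase, was chosen after its values were seen and is given without a test. Its log2 fold change was 0.69 with TGF-β1 over control and 0.52 with acetate over TGF-β1. DRAXIN, NPPA and PLOD1 are the 3 that rose with acetate over TGF-β1. The 7 that fell are not named here, and none of them fell by 2-fold or more.

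**Figure D4:**
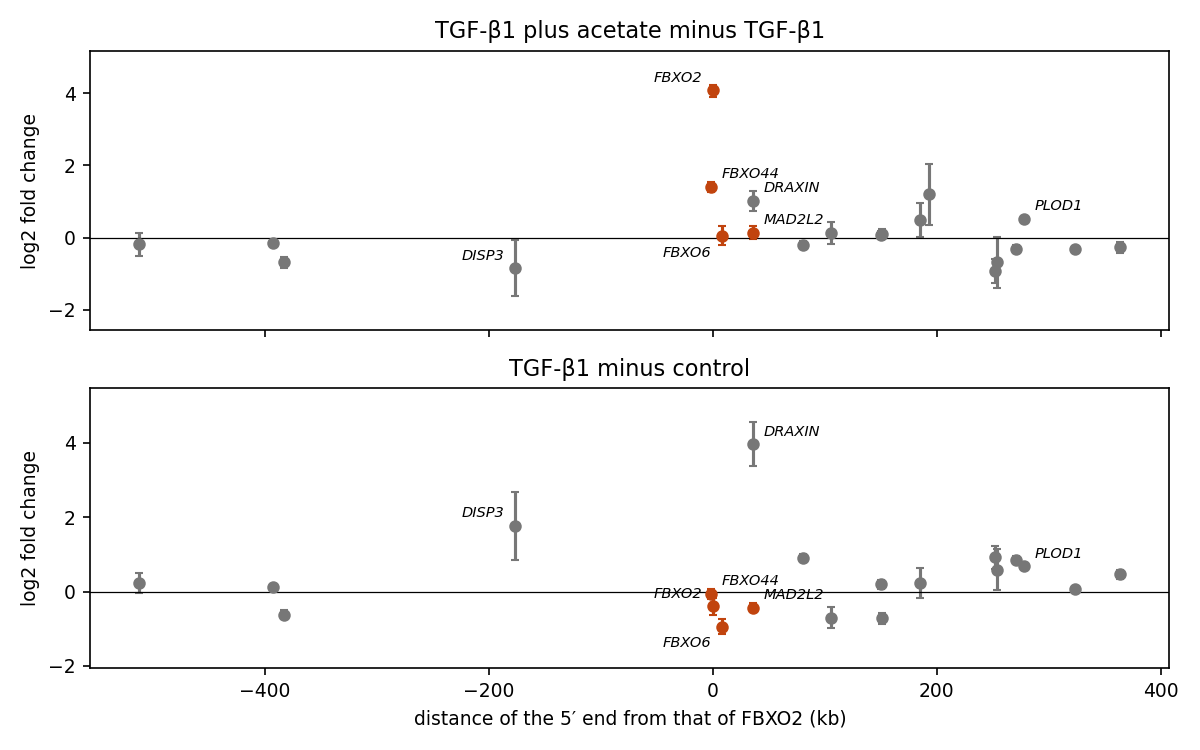
Log2 fold change (y axis, with 95% confidence interval) of the 4 genes (red) and of the other tested genes within 500 kb (grey), against the distance of each gene's 5′ end from that of FBXO2 in kb, for acetate over TGF-β1 (top) and TGF-β1 over control (bottom). With acetate, FBXO2 at 4.08 stands above the genes around it and FBXO44 at 1.41 is next. The place and the intervals of FBXO2 make no allowance for its choice on these libraries. The interval of FBXO44, 1.27 to 1.55, lies within that of NPPA, 0.36 to 2.05, and that of DRAXIN reaches 1.30. With TGF-β1, DRAXIN at 3.96 is highest.

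The other genes with an FBA domain did not move as one. FBXO27, a glycoprotein-binding F-box gene, averaged 2.25 ± 0.253 CPM in acetate, 1.01 ± 0.110 CPM in TGF-β1 and 3.12 ± 0.397 CPM in control cells (SD, n = 4 each). It rose with acetate over TGF-β1 (log2 fold change 1.16, edgeR adjusted p = 5.5e-06), and fell with TGF-β1 over control (-1.62, adjusted p = 2.4e-08). FBXO17 was the most abundant of them in CPM and fell in both steps, to 56.8 ± 2.16 CPM in acetate cells, against 80.5 ± 2.29 CPM in TGF-β1 cells and 90.3 ± 2.33 CPM in control cells (log2 fold changes -0.49 with acetate, adjusted p = 1.3e-08, and -0.16 with TGF-β1, adjusted p = 0.00063). NCCRP1, which has the FBA domain without an F-box, was at 0.280 ± 0.0240 CPM with acetate and 0.302 ± 0.0834 CPM with TGF-β1 (log2 fold change -0.08, adjusted p = 0.83).

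Across all F-box and FBA-domain genes tested with acetate over TGF-β1, FBXO2 had the largest log2 fold change of 68 and FBXO44 the 4th largest, behind FBXL16 at 1.8 and FBXW10 at 1.42, while FBXO6 was 32nd. The rank of FBXO2 comes from the values that picked it. Of the 65 left when FBXO2, FBXO44 and FBXO6 are set aside, 19 rose and 19 fell, with a median of 0.00; scaled by library totals, 34 rose and 9 fell. Over all genes 7437 (33.3%) rose and 6792 (30.4%) fell, and by library totals 9585 rose and 4700 fell. By at least 2-fold, 3 rose and 1 fell, where 10.8% of all genes rose and 2.07% fell by as much. The fall was that of FBXO32, the muscle atrophy ligase atrogin-1, which stood at 26.5 ± 1.48 CPM with acetate, 60.1 ± 2.12 CPM with TGF-β1 and 5.05 ± 0.423 CPM in control. FBXO32 was also the F-box gene that rose most with TGF-β1 (log2 fold change 3.58, adjusted p = 7.3e-18). With TGF-β1 over control, 26 of 64 rose and 26 fell, where 34.1% and 32.8% of all genes did. By library totals 19 rose and 30 fell, where 6078 of all 22051 genes rose and 8676 fell. Of 67 ranks FBXO44 held the 37th, FBXO2 the 54th and FBXO6 the 64th.

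**Figure D5:**
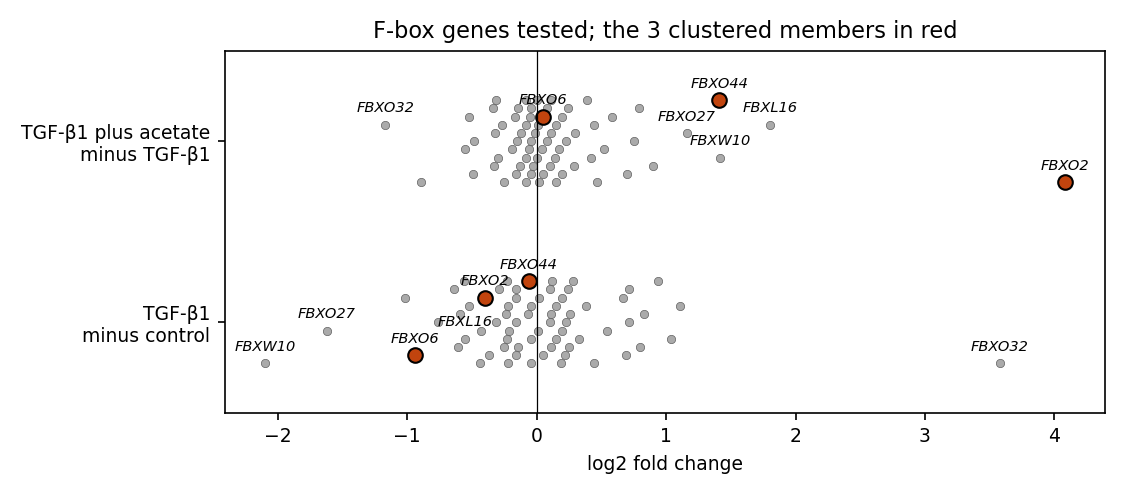
Log2 fold change (x axis) of every F-box and FBA-domain gene tested, for acetate over TGF-β1 (upper row, 68 genes) and TGF-β1 over control (lower row, 67 genes), with FBXO2, FBXO44 and FBXO6 in red and the others in grey; the vertical scatter within a row only separates the points. FBXO2 at 4.08 stands apart with acetate, the rise for which it was chosen, and FBXO32 at 3.58 with TGF-β1.

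Of the other F-box genes with the smallest p, CCNF, which encodes cyclin F, fell to 35.2 ± 2.09 CPM in acetate cells, against 65.8 ± 2.73 CPM in TGF-β1 cells (log2 fold change -0.89, adjusted p = 1.5e-10). FBXO5, the inhibitor EMI1 of the anaphase-promoting complex, fell by 0.55 on the log2 scale (adjusted p = 1.4e-08), and SKP2, which targets the inhibitor p27, fell by 0.27 (adjusted p = 0.0022) with overlapping groups; by library totals SKP2 gave -0.13 (adjusted p = 0.091). LMO7, which organises cell junctions, rose by 0.90 (adjusted p = 5e-11), while FBXL5, the iron sensor, fell by 0.52 (adjusted p = 1e-08). The log2 fold changes of CCNF, FBXO5, SKP2, LMO7 and FBXL5 with TGF-β1 over control were 0.54, 0.44, 1.11, -1.02 and 0.83, and both comparisons share the TGF-β1 libraries.

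Of 20 SCF core and neddylation genes tested with acetate over TGF-β1, 3 rose and 12 fell, with a median of -0.20. Of all genes 33.3% rose and 30.4% fell. By library totals 5 of the 20 rose and 6 fell, where 9585 of all 22336 genes rose and 4700 fell. The scaffold CUL1 fell to 78.2 ± 3.29 CPM with acetate, against 98.8 ± 2.52 CPM with TGF-β1 alone (log2 fold change -0.33, adjusted p = 1.8e-06). RBX1, the RING subunit that recruits the E2 enzyme, fell by 0.66 on the log2 scale (adjusted p = 2.8e-08), and COPS6, a subunit of the signalosome that removes NEDD8 from cullins, fell by 0.44 (adjusted p = 1.6e-07). Of the same genes, 10 of 20 rose with TGF-β1 over control and 4 fell, where 34.1% and 32.8% of all genes did. RBX1 rose by 0.66 (adjusted p = 3.4e-09) and NEDD8 by 0.31 (adjusted p = 3.6e-07). The NEDD8 E2 enzyme gene UBE2M gave -0.60 (adjusted p = 6.8e-09). With both agents RBX1 stood at 22.1 ± 1.63 CPM, against 22.3 ± 1.33 CPM in control (log2 fold change -0.01, edgeR adjusted p = 0.89).

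Of 29 genes of glycoprotein quality control and endoplasmic reticulum-associated degradation, 8 rose and 11 fell with acetate over TGF-β1. Their shares of 27.6% and 37.9% lie near the 33.3% and 30.4% of all genes. By library totals 16 rose and 7 fell, where 9585 of all 22336 genes rose and 4700 fell. The direction of the group thus turns with a scaling that also moves the counts of all genes towards rises. EDEM1 and EDEM2, which trim mannose from misfolded glycoproteins, rose by log2 fold changes of 0.42 and 0.55 (adjusted p = 7e-08 and 1.1e-07). VCP, the ATPase that extracts substrates from the membrane, fell to 513 ± 13.4 CPM with acetate, against 663 ± 9.23 CPM with TGF-β1 alone (log2 fold change -0.36, adjusted p = 4.3e-08), and NGLY1, which removes N-glycans from extracted proteins, gave -0.15 (adjusted p = 0.0048; -0.02 and 0.65 by library totals). With TGF-β1 over control, 12 of 29 rose and 8 fell, where 34.1% and 32.8% of all genes did. By library totals 11 rose and 14 fell, where 6078 of all 22051 genes rose and 8676 fell. The chaperone gene CALR stood at 872 ± 23.2 CPM in TGF-β1 cells and 439 ± 20.5 CPM in control cells (log2 fold change 1.00, edgeR adjusted p = 4.9e-13).

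Of 23 genes whose products work with MAD2L2, 3 rose and 15 fell with acetate over TGF-β1, with a median of -0.24. Of all genes 33.3% rose and 30.4% fell. By library totals 4 of the partner genes rose and 10 fell, where 9585 of all 22336 genes rose and 4700 fell. CDC20, the activator of the anaphase-promoting complex in mitosis, fell to 46.7 ± 1.73 CPM with acetate, against 88.3 ± 5.20 CPM with TGF-β1 alone (log2 fold change -0.91, adjusted p = 9.5e-11). TRIP13, the ATPase that remodels HORMA-domain proteins, fell by 0.74 on the log2 scale (adjusted p = 6.7e-10), and the shieldin gene FAM35A (SHLD2) fell by 0.62 (adjusted p = 8.1e-10). The translesion polymerase gene POLK rose by 0.35 (adjusted p = 5.2e-07). With TGF-β1 over control, 9 of 23 rose and 5 fell, where 34.1% and 32.8% of all genes did. By library totals 7 rose and 8 fell, where 6078 of all 22051 genes rose and 8676 fell. In that comparison C20orf196 (SHLD1) fell by 1.61 (edgeR adjusted p = 3.9e-10). FZR1, the other activator of the anaphase-promoting complex, rose by 1.58 (edgeR adjusted p = 6e-14).

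Genes with the pattern most like each member were found among 13357 protein-coding genes by the root mean square distance of log2(CPM + 0.5) values, centred on control, over the 12 libraries; this is a description with no test. For FBXO2 they were RNF128, a membrane ubiquitin ligase, at a distance of 0.227, the matrix glycoprotein gene TNC at 0.241, the lipoprotein gene APOE at 0.311, PRSS35 at 0.360 and PPP1R16B at 0.372. RNF128 averaged 10.2 ± 0.426 CPM in acetate, 0.519 ± 0.101 CPM in TGF-β1 and 0.554 ± 0.103 CPM in control libraries. For FBXO44 they were TSPAN33 at 0.0824, the monocarboxylate transporter gene SLC16A3 at 0.0848 and GSTM3 at 0.0872. SLC16A3 averaged 126 ± 8.81 CPM in acetate, 49.2 ± 4.16 CPM in TGF-β1 and 48.7 ± 2.22 CPM in control libraries. For FBXO6 they were GTF2H3 at 0.0534, MBTPS2 at 0.0676 and LYPLAL1 at 0.0716, and for MAD2L2 they were C16orf13 at 0.0519, RAB24 at 0.0609 and ADCK2 at 0.0667. GSTM3 and LYPLAL1 lie on chromosome 1 too, and the list of none of the 4 held another of the 4. By Pearson correlation in place of the distance, 1 of 5, 1 of 3, 0 of 3 and 1 of 3 of these genes were chosen again, in the order FBXO2, FBXO44, FBXO6 and MAD2L2.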

How the data were processed

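RNA was measured in 12 A549 libraries, 4 per group. Per the labels' protocols, stranded libraries were made from total RNA after removal of ribosomal RNA. The submitters' processing notes name bcl2fastq, HISAT2, limma and hg38; their versions, the counter, its strand setting and the annotation were not given in the sources used here. The 2 tables the authors deposited hold raw counts per gene, with the authors' log2 fold changes and p-values. The count columns carry no sample names. The 4 columns found in both tables, with identical counts in the 23771 shared genes, were taken as TGF-β1, and the other sets as control and as acetate by the authors' names for these tables; no label states this. Libraries keep their column codes, and 32 further columns of values per library were not used.

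Counts were tested in R 4.3.3 with edgeR 4.0.16 (filterByExpr with a minimum count of 10 and a minimum total of 15, TMM factors, glmQLFit and glmQLFTest, two-sided, Benjamini-Hochberg adjustment over all genes tested, threshold 0.05). TGF-β1 over control and acetate over TGF-β1 were each fitted within 1 table, and acetate over control on all 12 libraries joined on shared genes. CPM use TMM-adjusted totals of the joint fit. The fits were run on simulated counts with 100 genes changed by 1 and 100 by 2 on the log2 scale. They recovered 84% and 98% for TGF-β1 over control, with 10 false calls. For acetate over TGF-β1 they recovered 86% and 95%, with 18 false calls. Far fewer genes were changed there than passed in the data, so the simulation does not test the scaling. Tests of FBXO2 with TGF-β1 over control were planned but are given as values, since the TGF-β1 libraries entered its choice. Ratios of 2 genes used log2 counts with a pseudocount of 0.5. Library pairs within a group differed beyond sampling noise (chi-square per degree of freedom 3.71 to 16.3). Of all gene IDs, 99.1% matched GENCODE release 29, from which positions, exons and gene types come. Promoters come from RefSeq (GRCh38.p14), with all 4 members matched. Alternatives were DESeq2 1.42.0, limma-voom (limma 3.58.1), library totals, no filter, a joint fit, other windows and leaving out each library. The per-kb transcript length, the lowered FBXO44 counts and the pairs of neighbouring starts were added after seeing the data.

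The 4 members, the gene lists and the tests were chosen with earlier results of these data known. Named genes are the members, the FBA-domain genes, the nearest tested coding gene on each side and genes within 500 kb passing at 2-fold or more, the 3 genes per list with the smallest p in each of the first 2 comparisons, and the genes most alike in pattern (mean of at least 1 CPM); not all list genes are described, and FBXL16 and PLOD1 fall outside the rule. One neighbouring gene is not reported here by name, although counts include it.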

Additional observations from a re-analysis of the deposited data

Results flagged for a closer look

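In 150 groups of 4 libraries (50 named genes in 3 groups), 11 held 1 library that stood apart from the other 3 by more than 0.829 of the group's range; chance alone flags about 1 group in 20. None of the 4 members was among them. In control, library S1 was high for FBXO32 (5.68 CPM, the others 4.76 to 4.90), for LMO7 (46.5 CPM, the others at most 43.3) and for TSPAN33 (7.68 CPM, the others at most 6.59). Also in control, library S2 was low for PRSS35 (0.286 CPM) and SLC16A3 (45.4 CPM, the others at least 49.5), S3 was low for RBX1 (20.3 CPM) and S4 was high for EDEM2 (51.9 CPM). With TGF-β1, library S17 was low for SKP2 (37.0 CPM, the others at least 45.8), S15 was low for NEDD8 (127 CPM) and S16 was high for FBXW10 (1.52 CPM, the others at most 1.15). With acetate, library S25 was low for GSTM3 (11.9 CPM, the others at least 14.4).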

How the results depend on the processing

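No paired analysis was possible because the count columns carry no replicate number. Every tested change of FBXO44, FBXO6 and MAD2L2 kept its side of the threshold under DESeq2, limma-voom, the joint fit, no filter and each library left out, apart from MAD2L2 with acetate over TGF-β1. All kept their direction, apart from FBXO6 with acetate over TGF-β1, which did not pass and was -0.03 without acetate library S25. The log2 fold change of MAD2L2 was 0.14, ran from 0.057 to 0.195 over the libraries left out, with adjusted p from 0.039 to 0.50, and passed without S23. By library totals it was 0.269 and passed, FBXO44 with TGF-β1 over control was -0.159 and passed, and FBXO2 with acetate over TGF-β1 was 4.208; that scaling shifts the median of all genes by 0.13 and -0.10, and the cause was not tested further. Over the alternatives FBXO44 with acetate over TGF-β1 ran from 1.24 to 1.54, and FBXO6 with TGF-β1 over control from -1.04 to -0.91. In a window of 200 kb, 37.5% of neighbours passed with acetate over TGF-β1, against 58.8% in 500 kb and 63.7% of all genes; with TGF-β1 over control 85.7% passed in 200 kb, 75.0% in 500 kb and 66.9% of all genes. Of the values for single named genes, 1846 kept their call, 41 lost it, 18 gained it and none reversed. FBXO6 had as few as 69 counts in a library, which limits its precision.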

Other observations

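FBXO2 and FBXO44 are one case of genes that start close together on opposite strands, and the other such genes of the genome were read in the same fits. This was done after seeing the data and is a description with no test. Annotated starts of 1210 pairs of protein-coding genes lay head to head within 1000 bases; MAD2L2 and DRAXIN are among these pairs, while FBXO2 and FBXO44, whose annotated bodies overlap further, are not. With acetate over TGF-β1, 101 genes of such pairs rose at least 2-fold. Of their partners 53.5% rose, 21.8% fell and 19.8% rose at least 2-fold, where 38.2%, 35.1% and 11.8% of all protein-coding genes did. With TGF-β1 over control, 69 genes rose at least 2-fold, and of their partners 62.3% rose, 15.9% fell and 8.70% rose at least 2-fold, against 37.7%, 37.5% and 8.65% of all protein-coding genes. A pair in which both genes rose at least 2-fold enters these shares with each of its genes, which raises the shares of partners that rose. Among these partners a rise was the more frequent outcome with acetate. A fall, as in MAD2L2 beside DRAXIN with TGF-β1, was the outcome in 11 of 69. FBXO44 beside FBXO2 is outside these pairs, so the shares do not describe it. Level, gene length and reads shared between overlapping exons were not matched between partners and all genes, and their part was not tested. The shares over all genes of such pairs were not computed. The 101 and 69 genes that rose at least 2-fold in 1210 pairs are fewer than the shares of all protein-coding genes would give. All protein-coding genes are thus no matched baseline for the partners, least of all for rises of at least 2-fold.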
